A study of Ascodesmis nigricans with 6 samples.

Results

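Gene expression in microdissected protoapothecia of Ascodesmis nigricans was compared with that in total vegetative mycelium. The protoapothecia columns and the vegetative columns of the deposited count table were chosen by their labels, which gives 4 of the 6 libraries of the series, with 2 biological replicates a side, and all 9622 gene models. All samples are of strain CBS 389.68 and, per the labels, came from cultures grown for 3 days at 25 °C on slides carrying 150 to 200 µl of rabbit food agar medium with 0.8% agar, then fixed in ethanol. The protoapothecia were cut out by laser microdissection, in which chosen structures are cut from a slide under a microscope, whereas the mycelium is labelled as total. The remaining 2 libraries, of total sexual mycelium, were not part of the tested difference. They entered the low-count filter, the scaling and the estimate of the spread between replicates. RNA was linearly amplified before sequencing. Only the protoapothecia are labelled as microdissected, so tissue and way of collection cannot be told apart in any difference below.

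Ascodesmis nigricans is a cup fungus of the class Pezizomycetes. Its apothecium is an open fruiting body in which the spore sacs (asci) lie exposed in a layer, and the protoapothecium is the young stage, formed when sterile hyphae grow around the sexual initials. Vegetative hyphae grow by tip extension and feed the colony, so the comparison sets a compact tissue of several specialised hyphal types against foraging filaments. The file identifies each model by a protein identifier with neither a name nor a product. No marker gene of either tissue could therefore be looked up, the labelled tissues were not checked against markers, and changes are described by size, level and length of the models, with 4 models given by identifier.

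The protoapothecia libraries held 11794986 and 12676893 counts and the vegetative libraries 11670664 and 12835772. Models with 20 counts or more numbered 7517 and 7422 in the protoapothecia libraries and 6642 and 6816 in the vegetative ones, at nearly equal depth. Replicates differed by a median of 0.37 on the log2 scale in protoapothecia and 0.22 in vegetative mycelium over the 8861 genes tested. More than a 2-fold replicate difference was seen for 1167 genes (13.2%) in protoapothecia and 377 (4.25%) in vegetative mycelium.

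Most genes differed between the tissues. In protoapothecia 3528 genes were higher and 3129 lower than in vegetative mycelium at a Benjamini-Hochberg adjusted p under 0.05 by edgeR's quasi-likelihood test, which is 75.1% of the genes tested (39.8% higher and 35.3% lower). For all 6657 called genes both libraries of one tissue lay above both of the other, as they did for 7915 tested genes in all (89.3%). A stricter test asked which differences exceeded 2-fold beyond the spread between replicates. By edgeR's glmTreat, 5260 genes passed (59.4% of those tested), 2858 of them higher (32.3%) and 2402 lower (27.1%) in protoapothecia. Of the higher genes 81.0% passed it, and of the lower genes 76.8%, so most of the calls were not small shifts. Calls in which a single library decided the outcome were a minority: 2772 higher genes (78.6%) and 2500 lower genes (79.9%) were called whichever of the 4 libraries was left out.

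**Figure D1:**
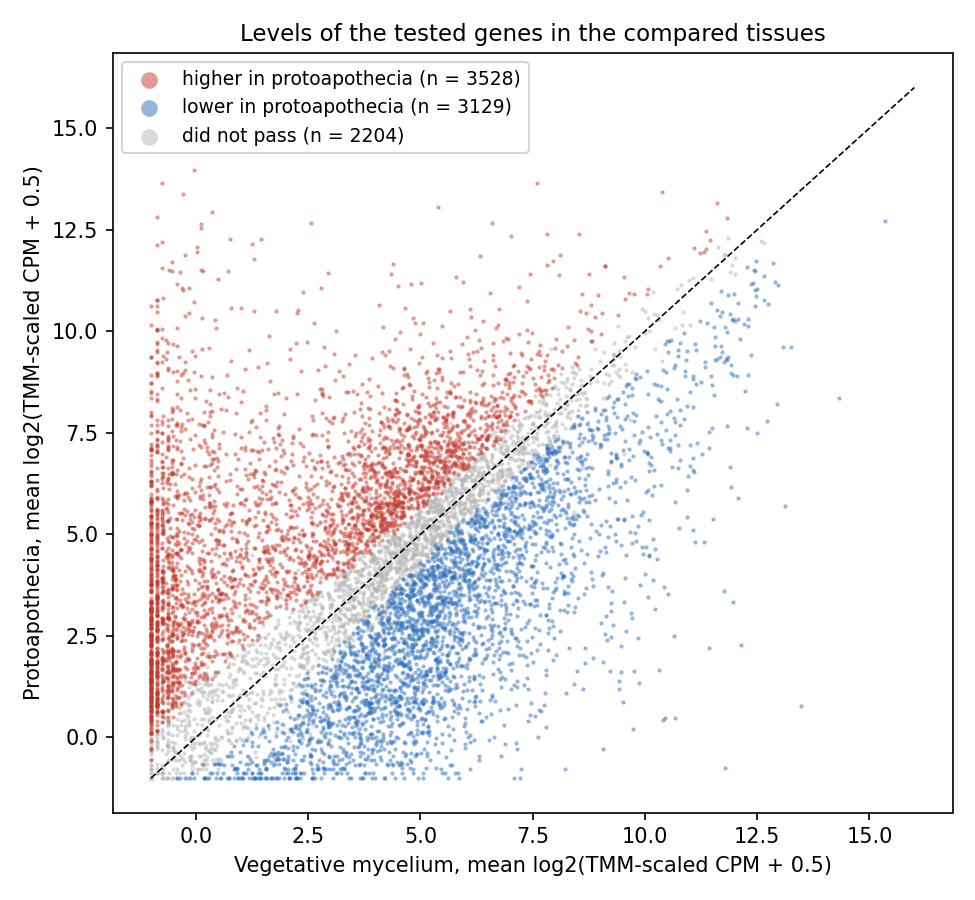
Each point is 1 of the 8861 genes tested, with its mean log2(TMM-scaled CPM + 0.5) over 2 libraries in protoapothecia on the vertical axis and in vegetative mycelium on the horizontal axis; the dashed line marks equal levels. The 3528 higher genes lie above it and the 3129 lower genes below it, and a column of higher genes stands at the left edge, where vegetative mycelium had no or almost no counts.

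The differences were larger among the genes that were higher in protoapothecia. Their fitted log2 fold change had a median of 3.47, with quartiles of 1.86 and 6.34, whereas the lower genes had a median of -2.62, with quartiles of -1.67 and -4.05. From 2-fold to 4-fold there were 758 higher and 823 lower genes, from 4-fold to 8-fold 568 higher and 753 lower, and from 8-fold to 16-fold 451 higher and 509 lower, so the lower genes were the more numerous throughout that range, except that with library totals alone the first class held 798 higher and 796 lower genes. From 16-fold to 64-fold there were 569 higher and 545 lower genes, an order that upper-quartile factors turned round (531 higher and 646 lower). Higher genes were clearly the more numerous above that: 414 genes were 64-fold to 256-fold higher and 181 that much lower, and 542 genes were 256-fold or more higher against 85 lower. In all, 1831 higher genes (20.7% of those tested) and 1140 lower genes (12.9%) reached a fitted fold of 10. Some of these fitted folds are set against 0 counts, where only a lower bound exists. With such genes placed at the bound given by 3 counts per library (0.271 and 0.284 CPM in protoapothecia, 0.285 and 0.306 CPM in vegetative mycelium), the median became 3.26 for the higher and 2.59 for the lower genes on the log2 scale. On that footing 577 genes (16.4% of the higher) differed by 100-fold or more upward, and 131 genes (4.19% of the lower) downward. CPM are counts per 1000000 of the effective library size, which includes the trimmed-mean (TMM) scaling.

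**Figure D2:**
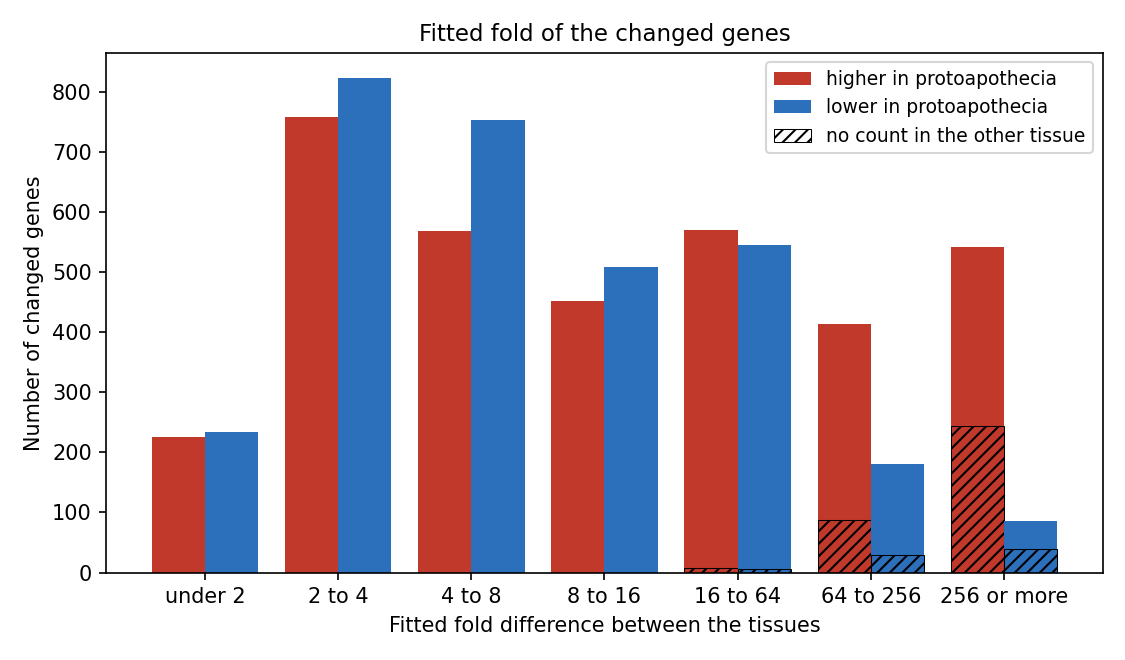
Number of changed genes (vertical axis) by fitted fold difference (horizontal axis), for genes higher and genes lower in protoapothecia; hatching marks genes with no count in the other tissue. Lower genes are the more numerous from 2-fold to 16-fold (from 2-fold to 4-fold not when scaled by library totals alone), and higher genes above 64-fold, with 542 against 85 at 256-fold or more.

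The same asymmetry was seen in levels per length. TPM, the counts divided by mRNA length and scaled to a sum of 1000000 per library, allows levels to be compared between genes. When models were sorted into TPM classes of under 1, 1 to 10, 10 to 100, 100 to 1000 and 1000 or more, 3994 of the 9622 were in the same class in both tissues. A total of 980 models stood 2 or more classes higher in protoapothecia, and 370 stood 2 or more classes higher in vegetative mycelium. Between single libraries these numbers ran from 932 to 1019 and from 349 to 438, so no pair of libraries brought them near each other. At the extremes, 197 models had 100 TPM or more in protoapothecia and under 1 TPM in vegetative mycelium, and 18 models had the reverse. With both libraries of each tissue required to pass these limits the numbers were 158 and 11. Of the TPM of protoapothecia, the 197 models took 19.5% and 18.1%, and of the TPM of vegetative mycelium 0.00398% and 0.00562%. The 18 models took 0.00115% and 8.25e-04% in the protoapothecia libraries and 2.10% and 1.94% in the vegetative libraries. In the sexual libraries, which these limits did not use, the 197 models took 1.84% and 4.99% of the TPM and the 18 models 0.566% and 0.663%.

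Most of the transcript pool of both tissues lay in genes called higher or lower. The 3528 higher genes took 65.0% and 64.3% of the TPM in the protoapothecia libraries and 7.26% and 7.33% in the vegetative libraries. The 3129 lower genes took 19.0% and 18.5% in the protoapothecia libraries and 78.4% and 78.0% in the vegetative libraries. The direction of these shares follows from the calls, which were made on the same libraries. In the sexual libraries the higher genes took 24.8% and 29.7% and the lower genes 49.1% and 49.5%. Genes that did not pass the test took at most 17.2% in a protoapothecia library and at most 14.7% in a vegetative library, and the 761 models removed for low counts took under 0.1% in each of these 4 libraries. The pool was spread over more genes in protoapothecia: the most abundant 135 and 133 models made up 50% of the TPM there, against 108 and 109 in vegetative mycelium, and 1809 and 1756 models made up 90%, against 1227 and 1236. The replicates of each tissue lay close together and the tissues did not overlap in these numbers, although 2 libraries against 2 allow no two-sided exact permutation p below 0.333.

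The most abundant genes of the tissues differed in how they stood in the other one. All 20 of the most abundant genes of protoapothecia were called higher there, all 20 of the most abundant genes of vegetative mycelium were called lower in protoapothecia, and the lists shared 0 genes. Against 39.8% higher and 35.3% lower among all genes tested, these shares are large, but genes listed for their level in one tissue tend to be higher in it by that choice. The lists were not alike in the depth of the change. The 20 genes of protoapothecia had a median rank of 1426 in vegetative mycelium and a median of 72.9 TPM there. The 20 genes of vegetative mycelium had a median rank of 177 in protoapothecia and a median of 1052 TPM, and 17 of them were at 100 TPM or more there.

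In longer lists the gap in rank was smaller than for 20 genes, but it varied with the length of the list. The median rank in the other tissue was 232 for the 100 most abundant genes of protoapothecia and 152 for those of vegetative mycelium. Their medians there were 800 and 1173 TPM. For the 200 most abundant genes the ranks were 455 and 240, with medians of 298 and 727 TPM. For the 500 most abundant genes the ranks were 724 and 646. Of the 100 most abundant genes of protoapothecia, 63 were higher there, 18 were lower and 19 did not pass. Of the 100 most abundant genes of vegetative mycelium, 5 were higher in protoapothecia, 83 were lower and 12 did not pass, and 35 genes were on both lists. The first list held 44.4% and 44.4% of the TPM in protoapothecia and 20.9% and 20.3% in vegetative mycelium, the second 18.8% and 19.1% in protoapothecia and 47.9% and 47.8% in vegetative mycelium. A level of 100 TPM or more in the other tissue was kept by 62 genes of the protoapothecia list and 90 genes of the vegetative list. Among the 500 most abundant genes, 84 of protoapothecia were under 1 TPM in vegetative mycelium, and 7 of vegetative mycelium were under 1 TPM in protoapothecia.

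**Figure D3:**
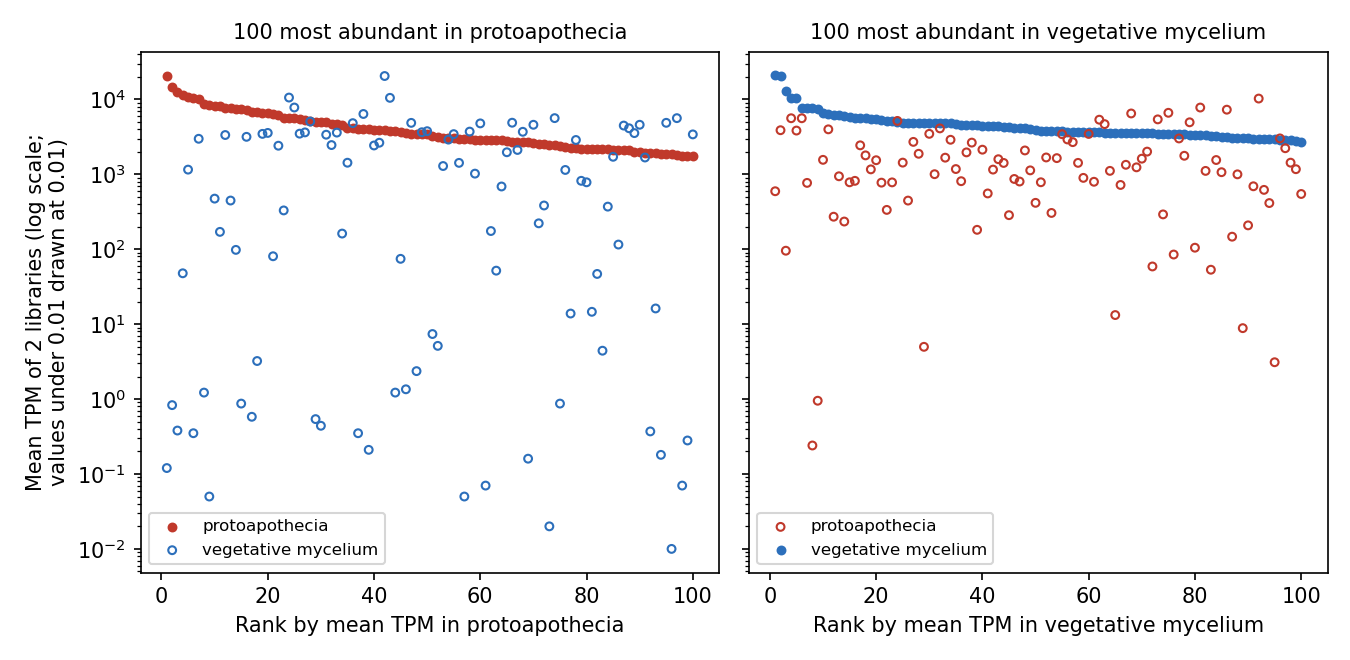
Mean TPM over 2 libraries (log axis) of the 100 most abundant genes of protoapothecia (left) and of vegetative mycelium (right), ranked on the horizontal axis by the tissue the list was made from. Filled points show that tissue and open points the other one, where 62 genes on the left and 90 on the right keep 100 TPM or more.

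The 4 models given by identifier are the most abundant changed genes of each tissue by TPM. The first, proteinId365999, with an mRNA of 593 bases, had the highest mean TPM of protoapothecia. The protoapothecia libraries held 119796 and 162140 counts of it, against 0 and 2 in the vegetative libraries. It made up 1.77% and 2.29% of the TPM in protoapothecia, and the replicates of either tissue lay far from the other tissue. The ratio of pooled scaled counts was 132492-fold, with a 95% exact (Clopper-Pearson) counting interval of 36677 to 1094034, which is wide because of the 2 vegetative counts. The fitted log2 fold change was 16.88 with a standard error of 0.75 (edgeR quasi-likelihood adjusted p = 2.42e-05). It was 15.98 without vegetative replicate 1 and 20.34 without vegetative replicate 2, where no count is left on the vegetative side. The sexual libraries had 972 and 836 counts of proteinId365999.

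The model proteinId342959, with an mRNA of 715 bases, ranked second in protoapothecia through a single library. It had 230828 counts in protoapothecia replicate 1 and 4307 in replicate 2, against 1 and 15 counts in the vegetative libraries. The protoapothecia replicates were 56.1-fold apart after scaling, so the mean of 11127 ± 15184 CPM (SD, n = 2) describes neither library, against 0.765 ± 0.937 CPM in vegetative mycelium (SD, n = 2). Both protoapothecia libraries were nonetheless far above both vegetative ones. The fitted log2 fold change was 13.79 with a standard error of 3.12 (edgeR adjusted p = 0.00583). It was 8.95 without protoapothecia replicate 1, 14.76 without protoapothecia replicate 2, 12.91 without vegetative replicate 1 and 16.59 without vegetative replicate 2, and by limma-voom the gene did not pass (log2 fold change 12.56, adjusted p = 0.0736). The sexual libraries of proteinId342959 were also uneven, with 1444 and 45 counts.

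In the opposite direction, proteinId343010, with an mRNA of 781 bases, had the highest mean TPM of vegetative mycelium. The protoapothecia libraries held 9319 and 1319 counts of it, against 159329 and 270522 in the vegetative libraries. The levels were 501 ± 540 CPM in protoapothecia and 20994 ± 6707 CPM in vegetative mycelium (SD, n = 2 each), 43.0-fold lower by pooled counts (counting interval 42.2 to 43.8). The counting interval is far narrower than the difference between the protoapothecia replicates, which were 7.40-fold apart, with replicate 1 again the higher. The fitted log2 fold change was -5.39 with a standard error of 1.00 (edgeR adjusted p = 0.00237), -7.46 without protoapothecia replicate 1 and -4.58 without protoapothecia replicate 2. Even at its reduced level proteinId343010 ranked 282 by TPM in protoapothecia.

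The model proteinId359588, with an mRNA of 1592 bases, was the most even of the 4 between replicates. The protoapothecia libraries held 71491 and 72572 counts of it, against 405443 and 440044 in the vegetative libraries. This corresponds to 6668 ± 147 CPM in protoapothecia and 41610 ± 360 CPM in vegetative mycelium (SD, n = 2 each), 6.24-fold lower (counting interval 6.21 to 6.28). The fitted log2 fold change was -2.64 with a standard error of 0.27 (edgeR adjusted p = 1.41e-04). It ranked 42 by TPM in protoapothecia and 2 in vegetative mycelium, so it was abundant in both tissues.

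**Figure D4:**
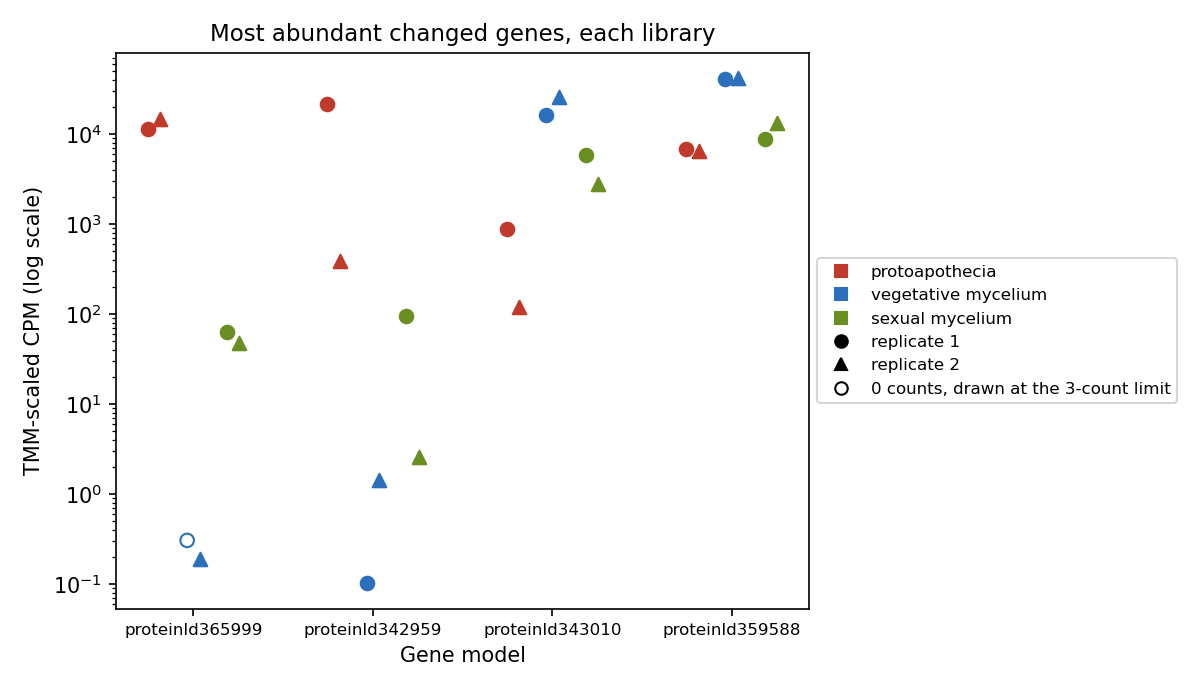
TMM-scaled CPM (log axis) of the 4 models in each library, by tissue and replicate; an open symbol marks 0 counts and is drawn at the limit of 3 counts. The protoapothecia and vegetative libraries do not overlap for any of the 4, and the protoapothecia replicates of proteinId342959 stand 56.1-fold apart.

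Some models had counts in one of the compared tissues and none in the other. Among models averaging 20 counts or more in protoapothecia, 283 had no count in either vegetative library. With the same minimum in vegetative mycelium, 49 models had no count in either protoapothecia library. These numbers depend on the minimum: they were 359 and 62 at a mean of 10 counts, and 200 and 23 at 50. The 283 models had a median of 9.26 TPM and a highest value of 1843 TPM in protoapothecia, and together made up 1.32% and 1.22% of the TPM of the protoapothecia libraries. The 49 models had a median of 7.17 TPM and a highest value of 99.5 TPM in vegetative mycelium, and together made up 0.0589% and 0.0774%. At least a 10-fold difference was shown by the bound of 3 counts per library for 237 of the 283 and for 37 of the 49. In the sexual libraries 208 of the 283 and 47 of the 49 had a mean of 1 TPM or more. No count in a library is compatible with up to 3 counts at this depth, so these models were not detected rather than shown to be silent.

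Genes with large folds had shorter models than the tested genes as a whole. The median mRNA length was 1312 bases over all genes tested, 1227 over the higher and 1367 over the lower genes. It was 998 bases among genes 10-fold or more higher and 921 among those 100-fold or more higher by the fit. It was 1254 bases among genes 10-fold or more lower and 854 among those 100-fold or more lower. Models under 500 bases made up 6.65% of the genes tested, 11.4% of those 100-fold or more higher and 19.9% of those 100-fold or more lower. Models over 3000 bases made up 8.90% of the genes tested, 3.32% and 2.21%. Both directions thus leaned to short models, and no test was made of these shares.

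The balance of directions moved with length as well. Among the shortest 20% of the tested genes (156 to 756 bases), 44.9% were higher and 34.7% lower in protoapothecia, and the median log2 fold change was 0.70. Among genes of 1534 to 2185 bases 36.0% were higher and 39.9% lower, with a median of -0.18, and among the longest 20% (2186 to 17559 bases) 37.9% were higher and 34.2% lower, with a median of 0.09. These medians moved with the scaling: with upper-quartile factors they were 0.38 in the shortest and -0.24 in the longest 20%, so the sign of the second changed. The shortest 10% alone had a median of 0.31 with TMM factors. The order was another one among abundant genes. In the upper 50% of genes by mean TPM, the median was -0.02 in the shortest 20% and 0.79 in the longest 20%, of which 51.0% were higher and 27.2% lower. The excess of higher genes among short models was thus not seen among the abundant genes, and the length of the models cannot be read apart from their level here. Whether amplification or collection acted on length was not tested.

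By level, the share of genes called was lowest where counts were few. It was 63.7% in the 20% of genes with the lowest mean TPM and 81.3% in the 20% with the highest. The direction was uneven: 46.0% of the genes between 22.8 and 67.4 TPM were higher and 32.4% lower, whereas 35.6% of those between 3.32 and 9.33 TPM were higher and 40.0% lower. In the highest 20% the directions were nearly even, at 40.4% higher and 40.9% lower.

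**Figure D5:**
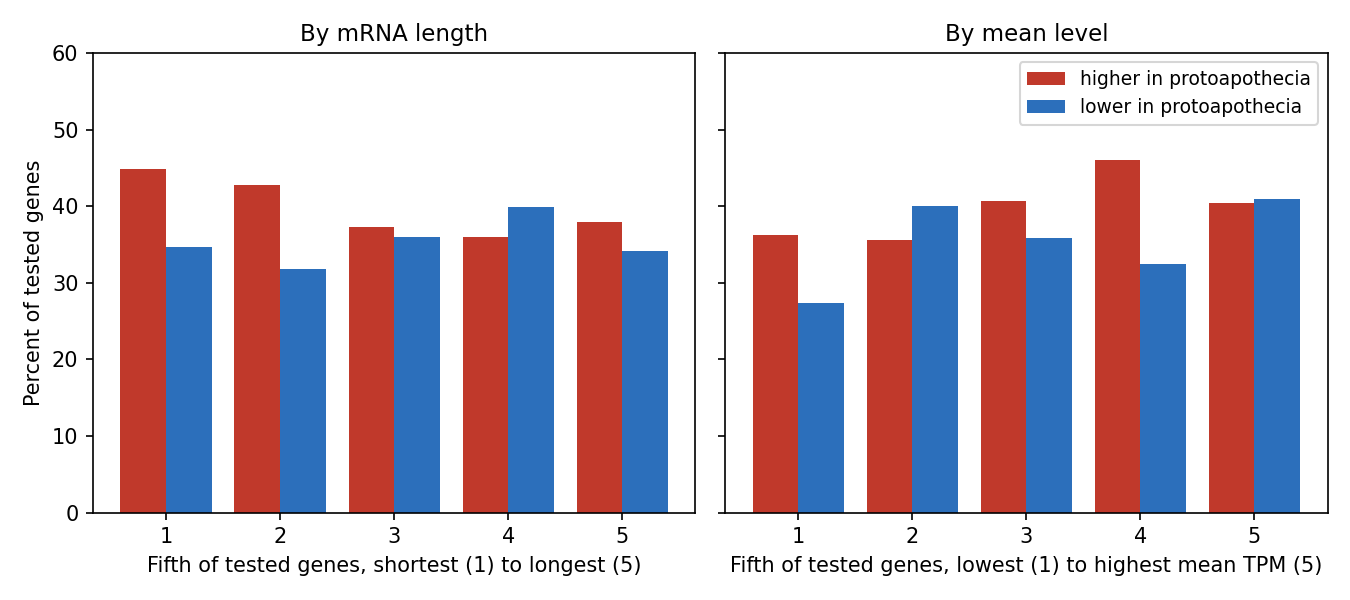
Percent of tested genes called higher and lower in protoapothecia (vertical axis), in 5 classes of equal size by mRNA length (left) and by mean TPM (right). Higher genes are 44.9% of the shortest and 37.9% of the longest models, and the share called in either direction is lowest in the lowest level class.

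For most genes that did not pass, a steady level was not shown either. The 2204 such genes had a median absolute log2 fold change of 0.48, and 423 of them had a fitted fold of 2 or more. The limma-voom 95% interval of the log2 fold change lay wholly within 2-fold in either direction for 622 of the 8861 genes (7.02%), and within 1.5-fold for 47. The median interval was 2.03 log2 units wide, and 621 of the 2204 genes that did not pass (28.2%) had theirs within 2-fold. The 622 genes took at most 11.2% of the TPM of a protoapothecia library and at most 9.26% of a vegetative library. Their medians were 37.0 and 31.8 TPM, above the medians of 12.3 and 8.53 TPM over all genes tested. An interval narrow enough to lie within 2-fold needs enough counts, so this higher abundance follows in part from the rule.

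The levels of the called genes in sexual mycelium are given beside both tissues. Over the 3528 higher genes the median was 45.7 and 43.9 CPM in the protoapothecia libraries and 14.3 and 16.5 CPM in the sexual libraries, against 2.45 and 2.85 CPM in the vegetative libraries. Over the 3129 lower genes the median was 6.73 and 6.24 CPM in the protoapothecia libraries. It was 34.0 and 34.4 CPM in the sexual libraries, against 42.7 and 43.9 CPM in the vegetative libraries. The order of the mycelia in the lower genes depended on the measure. By TPM, which carries no TMM factor, their median was 33.7 in sexual and 24.4 in vegetative mycelium. The TMM factors were 1.317 and 1.413 in the sexual libraries and 0.840 and 0.819 in the vegetative libraries. Single genes varied more than these medians show. By mean CPM, sexual mycelium lay between the other tissues for 2640 of the higher genes, above both for 481 and below both for 407, and for the lower genes the numbers were 1776, 1108 and 245. In bulk samples fewer cells of a type and less RNA per cell cannot be told apart, and total sexual mycelium may itself hold protoapothecia, in a proportion the labels do not give.

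The authors' own values for this comparison were set beside the fit. The log2 of the ratio in the authors' deposited table, credited to DESeq in its header, differed from the fitted log2 fold change by a median of 0.06 in size over the 8800 tested genes with a ratio above 0. The values were more than 1 log2 unit from those of the authors' deposited table for 455 genes, of which 435 had no count in one of the tissues. The authors' deposited table also gives a LOX probability that a gene is higher in protoapothecia. For all 3528 higher genes the probability in the authors' deposited table was 0.95 or more, and for all 3129 lower genes it was 0.05 or less. Of the 2204 genes that did not pass edgeR's test, 987 have a probability of 0.95 or more and 793 of 0.05 or less in the authors' deposited table, so most genes not called by edgeR lie beyond one of these limits there. For proteinId342959, the model carried by protoapothecia replicate 1, the authors' deposited table lists a DESeq ratio of 901. The ratio of pooled scaled counts here was 13812 (counting interval 8505 to 24165). This interval leaves out the 56.1-fold gap between the protoapothecia replicates, so it cannot show that the ratios disagree. The fitted log2 fold change of 13.79 had a standard error of 3.12. For proteinId365999, proteinId343010 and proteinId359588 the authors' deposited table lists 78935, 0.0300 and 0.170, against pooled ratios of 132492, 0.0233 and 0.160 here.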

How the data were processed

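The deposited table holds raw read counts per gene model in 6 libraries, per the file headers, with mRNA lengths in bases. It also holds the authors' ratio and adjusted p-value of DESeq, a tool that the submitters' processing notes also name, with no version, and a probability from LOX, a score from 0 to 1, per the file headers. The deposited p-values have 2 decimals. The aligner, counter, build, annotation and use of strand are not stated by the labels or headers, so overlapping, antisense or near-identical genes cannot be told apart. The LOX ratios and the "classic" ratios were not used.

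Columns were assigned to libraries by the title in their name. edgeR's filterByExpr, run on all 6 libraries, kept 8861 of 9622 models. Run on the 4 libraries compared, it kept 8493. All 6 libraries were fitted by group with TMM factors and without a replicate term (edgeR 4.0.16, R 4.3.3; robust quasi-likelihood fit, 3 residual degrees of freedom), and protoapothecia were tested against vegetative mycelium, two-sided, with Benjamini-Hochberg adjustment over all genes tested. The glmTreat test used a threshold of 2-fold on the same fit. Standard errors are the fitted log2 fold change over the root of its F statistic. Intervals within 2-fold came from limma-voom (limma 3.58.1). TPM and CPM were computed here from the counts, and replicate differences used log2(CPM + 0.5). Floors of 3 counts and counting intervals take in counting error alone: reads from amplified RNA do not each stand for a molecule. The labels call the replicates independent biological ones.

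The models named are the 2 with the highest mean TPM in each direction among called genes whose groups do not overlap. This comparison, the lists and the rules were chosen with earlier results of these data known. Alternatives were other scalings, filters, tools (DESeq2 1.42.0, limma-voom), a fit of the 4 libraries, a replicate block and each library left out. Replicates differed by more than counting noise (chi-square per degree of freedom 101 for protoapothecia and 42.0 for vegetative mycelium), so neither pair is 1 library deposited more than once. The tests were checked on simulated counts in which most genes did not differ between groups. That setting is unlike these data, so the check does not cover the scaling where most genes differ. Figures used matplotlib 3.10.9.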

Additional observations from a re-analysis of the deposited data

How the results depend on the processing

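The count of changed genes ran from 5674 to 6762 over 16 alternatives, against 6657, and that of genes changed by more than 2-fold from 4494 to 5296 over the 14 that use edgeR, against 5260; both were lowest without vegetative replicate 1. No gene called with TMM factors was called in the opposite direction under any of the 16. The direction held by more genes depended on the scaling: 53.0% of the calls were higher with TMM factors, 54.6% with library totals alone and 47.6% with upper-quartile factors, which move the median log2 fold change over all genes tested by -0.32, to -0.17 against 0.15. The larger number of genes with a fitted fold of 10 or more among the higher ones held under all 16, with 1675 against 1328 lower genes by upper-quartile factors. The labels number replicates alike across groups but do not say that a number marks a shared culture. Deviations of same-numbered protoapothecia and vegetative libraries had a correlation of -0.033 over 8861 genes. With a single replicate difference per tissue, this value cannot show whether a culture was shared. With the replicate block 6472 genes were changed, and 5119 by more than 2-fold. With a bound of 1.5-fold, 47 genes in place of 622 had their interval inside it, a stricter limit by construction. The counts per TPM class, and their values by library pair or with both libraries required, were chosen after seeing the data. Of the 4 models named, proteinId342959 alone lost its call, by limma-voom; the cause was not tested. Depth limits what can be said of genes near 0 counts, since 3 counts equal 0.271 to 0.306 CPM in these 4 libraries.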
